A study of Bos indicus x Bos taurus with 20 samples.

Results

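Molecular chaperones of the heat shock families bind unfolded or partly folded proteins, keep them from aggregating and help them reach or regain their shape. HSP70 proteins (HSPA genes) work in cycles with J-domain co-chaperones (DNAJA, DNAJB and DNAJC genes), HSP90 proteins finish the folding of many signalling proteins, the CCT ring folds actin and tubulin in the cytosol, HSPD1 and HSPE1 form the chaperonin of the mitochondrial matrix, and small heat shock proteins (HSPB genes and CRYAB) hold unfolded proteins in a refoldable state. Transcription of the inducible members is driven mainly by heat shock factor 1 (HSF1). In cattle and mice the early cleavage embryo lives on RNA stored in the oocyte, and expression of HSP70 genes is among the known early signs of embryonic transcription.

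The genes described here were chosen by symbol: every DNAJA, DNAJB, DNAJC, HSPA, HSPB and CCT gene with a number, together with HSP90AA1, HSP90AB1, HSPD1, HSPE1, HSPH1, CRYAB, HSF1 and HSF2. HSPA5 and DNAJB9, chaperones of the endoplasmic reticulum (ER) stress response, were left out. The choice used names and no measured value, but was made with earlier results of these data known. It gave 81 members among 30675 gene rows, of which 71 had enough counts to be tested and 10 did not.

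Bovine zygotes (Bos indicus x Bos taurus, labelled WT) received METTL7A mRNA made in vitro or vehicle, to learn what METTL7A does before implantation, and polyA RNA of the resulting embryos was sequenced. The 8 libraries of the 8-cell and 2-cell stages are described, out of 20 in the series; the blastocyst libraries were not used here. The 4 groups are METTL7A 8-cell, Control 8-cell, METTL7A 2-cell and Control 2-cell, with 2 libraries each, and Control means vehicle. Since all Control embryos received vehicle and none another mRNA, an effect of the METTL7A product and an effect of injected mRNA as such cannot be told apart. The labels do not say how many embryos a library held or whether replicates came from separate pools, and the p-values therefore measure the spread between these libraries, which may be technical.

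Counts assigned to genes ranged from 15781017 to 20737404 per library. The injected transcript was present as labelled, with METTL7A at 18748 and 38113 CPM (counts scaled to the size of the library) in METTL7A 8-cell, 7.36 and 7.57 in Control 8-cell, 47718 and 42836 in METTL7A 2-cell and 19.1 and 14.2 in Control 2-cell libraries. All 6 oocyte markers (among them GDF9 and BMP15) were detected in every library, but they did not move together between stages. GDF9, ZAR1 and NLRP5 were lower at the 8-cell stage in both treatments, BTG4 was higher in both, and OOSP2 was higher in METTL7A embryos. Among 8-cell libraries their sum was lowest in Control 8-cell replicate 1 (12247 CPM, against 21584 to 36367 CPM). The 4 genome activation markers in the table (KLF17, ARGFX, DUXA and ZSCAN4) summed to 8757 and 11564 CPM in METTL7A and 2011 and 6376 CPM in Control 8-cell libraries, against 79.4 to 98.2 CPM in 2-cell libraries. Control 8-cell replicate 1 stood apart from the other 8-cell libraries. It had the lowest of the 4 genome activation sums at its stage and the highest sum of 7 stromal cell markers. That sum was 82.9 and 104 CPM in METTL7A 8-cell and 5136 and 993 CPM in Control 8-cell replicates 1 and 2, against 77.4 to 143 CPM in 2-cell libraries. Outside Control 8-cell libraries it was mostly FBN1, with 69.7 and 68.1 CPM in METTL7A 8-cell and 72.4 to 136 CPM in 2-cell libraries. In METTL7A embryos 4 stromal markers (DCN, COL1A1, LUM and POSTN) were higher in both 8-cell libraries than in both 2-cell libraries, 2 were lower and 1 overlapped. All 7 stromal markers were above 0 in each 8-cell library, and 2 to 4 of them were at 0 in each 2-cell library. Values without Control 8-cell replicate 1 are therefore given beside named results that it moved, and the part that other cells or a lag in development had in them was not tested. In libraries of whole embryos, fewer cells of a type and less RNA per cell cannot be told apart, and CPM is a share of the library, not an amount per embryo.

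Summed, the members took a larger share of the library at the 8-cell stage, much of it from HSPA8. They held 1.23% and 1.28% of the counts in METTL7A 8-cell and 1.73% and 1.38% in Control 8-cell libraries, against 1.08% and 1.004% in METTL7A 2-cell and 1.07% and 1.07% in Control 2-cell libraries. Every 8-cell library lay above every 2-cell library. HSPA8 held 44280 of 193747 and 56237 of 212269 member counts in METTL7A 8-cell libraries. In METTL7A 2-cell libraries it held 14148 of 173429 and 16889 of 207612. Without HSPA8 the member shares of METTL7A 8-cell libraries would overlap those of 2-cell libraries. In METTL7A embryos 21 of the 71 tested members rose at the 8-cell stage relative to the 2-cell stage and 9 fell, by the edgeR quasi-likelihood test with Benjamini-Hochberg adjustment over all genes at 0.05. Among all 16149 genes tested 23.1% rose and 17.1% fell in the same comparison. In Control embryos 25 members rose and 11 fell, where 29.9% of all genes rose and 22.8% fell. The median log2 fold change of the members was 0.48 in METTL7A and 0.51 in Control embryos, beside 0.04 and 0.18 for all genes. Both 8-cell libraries lay above both 2-cell libraries for 39 members in METTL7A embryos (54.9%, beside 38.5% of all genes) and for 40 in Control embryos (56.3%, beside 40.8%), and below them for 17 in METTL7A (23.9%, beside 37.1%) and 20 in Control embryos (28.2%, beside 38.1%). With METTL7A and LOC781439 (the other gene called between treatments at the 2-cell stage) left out of the library sizes, 17 members rose and 13 fell in METTL7A embryos, beside 3284 and 3621 of all genes. The median of all genes moved by -0.25 there and that of the members was 0.21.

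The 2 stage comparisons share no library. Of the members that rose, 17 did so in both, which is 81% of the METTL7A list and 68% of the Control list, beside 80.5% and 62.2% for all genes. Of those that fell, 9 did so in both, 100% of the METTL7A list and 81.8% of the Control list, beside 77.9% and 58.4% for all genes. Under each of the 15 alternative settings, which include leaving out each library in turn, 13 members kept their call in both comparisons. The 8 that rose were HSPA8, HSF2, DNAJB1, DNAJC3, DNAJC10, DNAJC12, DNAJC19 and DNAJC24, and the 5 that fell were HSPA1A, HSPA6, DNAJA3, DNAJC11 and DNAJC14. The share of all genes that kept both calls was not computed, so this count does not set the members apart from other genes.

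**Figure D1:**
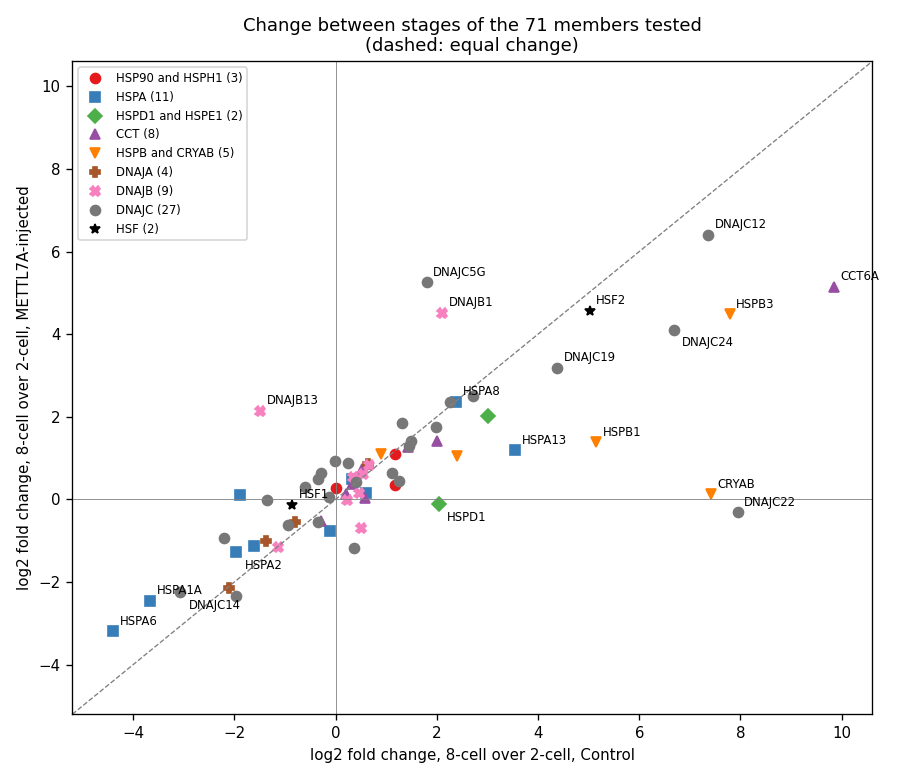
Each point is 1 of the 71 tested members, with its log2 fold change of 8-cell over 2-cell embryos in Control embryos on the x axis and in METTL7A embryos on the y axis. HSPA6 (-3.19 in METTL7A, -4.40 in Control) and HSPA1A lie at the lower left and HSF2 (4.57, 5.02) near the dashed line of equal change, while CRYAB (0.12, 7.41) and DNAJC22 (-0.31, 7.94) lie far to the right of it, as does HSPB3, whose Control value was fitted against 2-cell libraries with 0 counts.

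HSF2, a heat shock factor known in mice for roles in gametes and embryos rather than in the response to heat, was the factor that rose. It had 65.9 and 100.3 CPM in METTL7A and 78.0 and 56.5 CPM in Control 8-cell libraries, against 3.3 and 3.67 CPM in METTL7A and 2.19 and 1.95 CPM in Control 2-cell libraries. Both 8-cell groups lay above all 2-cell libraries without overlap. The log2 fold change between stages was 4.57 (SE 0.386, adjusted p = 6.38e-05) in METTL7A embryos and 5.02 (SE 0.396, adjusted p = 6.9e-05) in Control embryos, a rise of 23.8-fold and 32.4-fold. HSF1, the main inducer of heat shock genes, did not pass the test between stages with all 8 libraries. In Control embryos that outcome depended on Control 8-cell replicate 2. HSF1 had 34.6 and 24.2 CPM in METTL7A and 17.0 and 48.0 CPM in Control 8-cell libraries, against 31.7 and 32.6 CPM in METTL7A and 58.3 and 59.5 CPM in Control 2-cell libraries. Its Control 8-cell libraries spanned the METTL7A values, and the Control 2-cell libraries were the highest. The stage differences of HSF1 were -0.13 (SE 0.454, adjusted p = 0.845) in METTL7A embryos and -0.86 (SE 0.456, adjusted p = 0.141) in Control embryos.

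Among HSP70 genes the constitutive HSPA8 rose while the heat-inducible HSPA1A and HSPA6 fell. Of the 11 tested HSPA genes, 1 (9.09%) rose and 4 (36.4%) fell in METTL7A embryos, where 23.1% of all genes rose and 17.1% fell. In Control embryos 2 (18.2%) rose and 4 (36.4%) fell, where 29.9% of all genes rose and 22.8% fell. HSPA8, the housekeeping HSP70 of the cytosol, had 3270.5 and 4710.0 CPM in METTL7A and 4885 and 3383 CPM in Control 8-cell libraries, against 805 and 748 CPM in METTL7A and 801 and 787 CPM in Control 2-cell libraries. All 4 of the 8-cell libraries lay well above all 2-cell libraries, and the treatments overlapped at the 8-cell stage. The log2 fold change was 2.36 (SE 0.353, adjusted p = 0.000905) in METTL7A embryos and 2.38 (SE 0.353, adjusted p = 0.000724) in Control embryos, a rise of 5.14-fold and 5.2-fold. HSPA8 made up 80.4% to 83.8% of all HSPA counts in the 8-cell libraries and 34.5% to 36.7% in the 2-cell libraries. Exact 95% binomial intervals were 80.1% to 80.8% for the lowest 8-cell share and 36.2% to 37.2% for the highest 2-cell share, and all such intervals cover counting error only. The summed level of the 12 HSPA genes was 4066 and 5618 CPM in METTL7A 8-cell and 5853 and 4128 CPM in Control 8-cell libraries, against 2169.6 to 2216 CPM in the 2-cell libraries.

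HSPA1A, the major stress-inducible HSP70, had 38.4 and 60.7 CPM in METTL7A and 27.6 and 28.2 CPM in Control 8-cell libraries, against 247 and 294 CPM in METTL7A and 349 and 357 CPM in Control 2-cell libraries. Both stages were clearly apart in both treatments, and among 8-cell libraries the METTL7A pair lay above the Control pair. HSPA1A fell at the 8-cell stage, with log2 fold changes of -2.45 (SE 0.310, adjusted p = 0.000390) in METTL7A embryos and -3.66 (SE 0.326, adjusted p = 9.99e-05) in Control embryos, which is 5.46-fold and 12.7-fold lower. The difference between METTL7A and Control embryos was 0.83 (SE 0.298, adjusted p = 0.123) at the 8-cell stage and did not pass. Its share of HSPA counts was 0.945% and 1.08% in METTL7A 8-cell and 0.471% and 0.684% in Control 8-cell libraries, against 11.3% to 16.4% in 2-cell libraries. HSPA6, which in humans is expressed almost only under stress, had the same order of groups. It had 3.18 and 4.19 CPM in METTL7A and 2.13 and 2.64 CPM in Control 8-cell libraries, against 29.4 and 37.8 CPM in METTL7A and 52.2 and 48.9 CPM in Control 2-cell libraries, and fell by 3.19 (SE 0.374, adjusted p = 0.000267) in METTL7A and 4.40 (SE 0.394, adjusted p = 9.99e-05) in Control embryos on the log2 scale. HSPA1A, HSPA6 and HSPA1L are close in sequence, and the way shared reads were counted is not given in the sources used here, so their levels are uncertain where reads could be split.

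HSPA2, an HSP70 needed for sperm formation in mice, also fell. It had 71.1 and 132 CPM in METTL7A and 35.4 and 83.4 CPM in Control 8-cell libraries, against 247 and 247 CPM in METTL7A and 231 and 233 CPM in Control 2-cell libraries. The 2-cell libraries were nearly equal, and all 8-cell libraries lay below them with a wide spread. The log2 fold changes were -1.28 (SE 0.434, adjusted p = 0.0414) in METTL7A embryos and -1.97 (SE 0.442, adjusted p = 0.00547) in Control embryos. HSPA4L, an HSP110-type exchange factor for HSP70, had 143 and 168 CPM in METTL7A and 76.9 and 112 CPM in Control 8-cell libraries, against 341 and 344 CPM in METTL7A and 296 and 281 CPM in Control 2-cell libraries, with log2 fold changes of -1.14 (SE 0.285, adjusted p = 0.0117) in METTL7A embryos and -1.61 (SE 0.289, adjusted p = 0.00176) in Control embryos. In METTL7A embryos both calls ended without either METTL7A library of either stage (adjusted p = 0.0582 to 0.230 for HSPA2 and 0.0523 to 0.0784 for HSPA4L). In Control embryos HSPA2 had -2.76, adjusted p = 0.000264 without Control 8-cell replicate 2. HSPA13, a microsome-associated HSP70, passed the test in Control embryos and missed it in METTL7A embryos. HSPA13 had 33.9 and 19.5 CPM in METTL7A and 109 and 40.7 CPM in Control 8-cell libraries, against 10.9 and 12.6 CPM in METTL7A and 7.06 and 5.71 CPM in Control 2-cell libraries. Control 8-cell replicate 1 was the highest, and all 8-cell libraries exceeded all 2-cell libraries. Its log2 fold changes were 1.19 (SE 0.490, adjusted p = 0.0816) in METTL7A embryos and 3.55 (SE 0.531, adjusted p = 0.000773) in Control embryos, and 2.65, adjusted p = 0.000382 in Control embryos without Control 8-cell replicate 1.

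The other 5 tested HSPA genes passed in neither stage comparison. HSPA9, the HSP70 of mitochondria, had 239 and 284 CPM in METTL7A and 370.1 and 261 CPM in Control 8-cell libraries, against 243 and 224 CPM in METTL7A and 208 and 206 CPM in Control 2-cell libraries (log2 fold change 0.17, adjusted p = 0.668, in METTL7A and 0.60, adjusted p = 0.0981, in Control embryos). HSPA4, HSPA14, HSPA1L and HSPA12A had log2 fold changes of -0.77, 0.48, 0.50 and 0.10 in METTL7A and -0.11, 0.39, 0.33 and -1.89 in Control embryos.

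**Figure D2:**
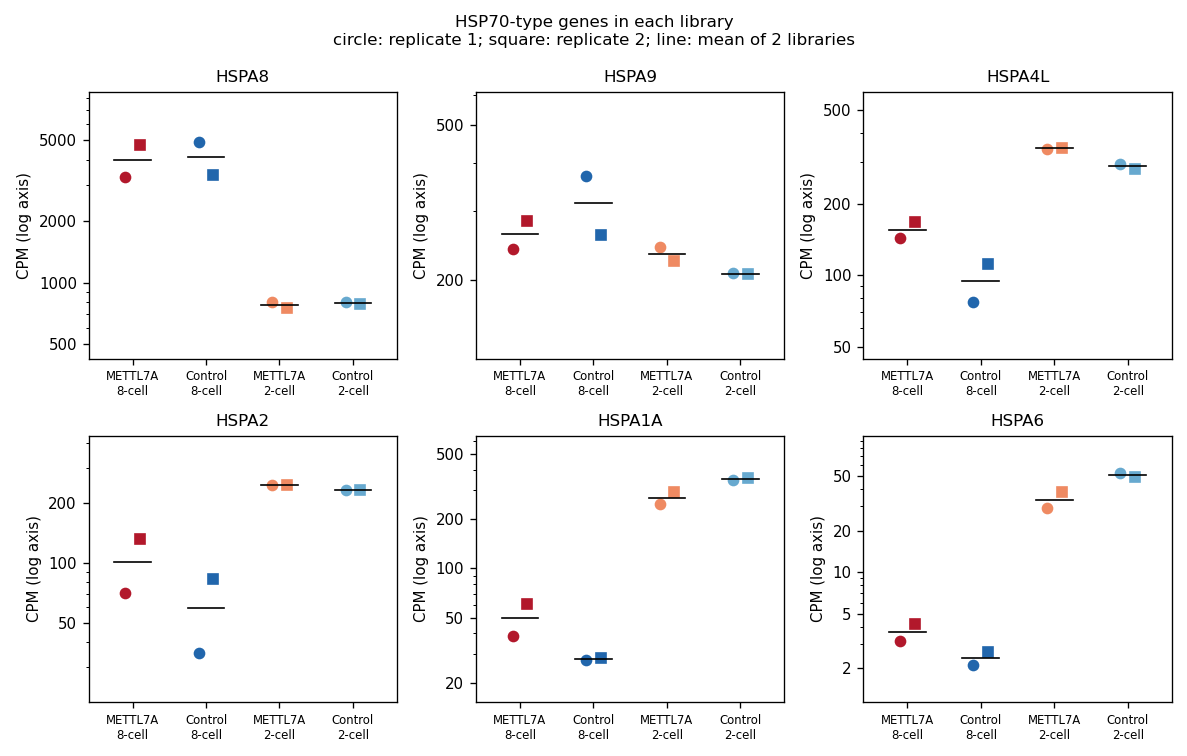
CPM on a log axis in each of the 8 libraries for 6 HSPA genes, with METTL7A and Control 8-cell groups left and the 2-cell groups right; points are libraries and lines are means of 2. HSPA8 stands at 3270.5 to 4885 CPM at the 8-cell stage and 748 to 805 CPM at the 2-cell stage, whereas HSPA1A stands at 27.6 to 60.7 and 247 to 357 CPM.

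DNAJB1, the J-domain partner of HSP70 that is induced together with it by heat, rose, unlike HSPA1A. It had 373 and 721 CPM in METTL7A and 127 and 295 CPM in Control 8-cell libraries, against 23.6 and 24.2 CPM in METTL7A and 47.9 and 49.7 CPM in Control 2-cell libraries. The METTL7A pair was the higher one at the 8-cell stage and the lower one at the 2-cell stage, and no 2 groups overlapped. DNAJB1 rose by 4.52 (SE 0.501, adjusted p = 0.000212) in METTL7A embryos and 2.11 (SE 0.451, adjusted p = 0.00426) in Control embryos on the log2 scale. Between treatments it differed by 1.37 (SE 0.440, adjusted p = 0.0936) at the 8-cell stage and -1.03 (SE 0.440, adjusted p = 0.649) at the 2-cell stage, and neither passed. The stage difference in METTL7A embryos minus that in Control embryos was 2.41 (SE 0.622, adjusted p = 0.180), also short of the threshold. The Control rise was 1.33, adjusted p = 0.00734 without Control 8-cell replicate 2, and without METTL7A 8-cell replicate 2 the METTL7A rise was 3.92, adjusted p = 0.00391.

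Of the HSP90 genes, HSP90AA1, the stress-inducible cytosolic HSP90, had 1658 and 2304 CPM in METTL7A and 2180.3 and 1516 CPM in Control 8-cell libraries, against 960.4 and 880.1 CPM in METTL7A and 805 and 825 CPM in Control 2-cell libraries. The 8-cell libraries of the treatments interleaved and all lay above the 2-cell libraries. Its rise was 1.11 (SE 0.326, adjusted p = 0.0238) in METTL7A embryos and 1.18 (SE 0.327, adjusted p = 0.0140) in Control embryos, or 2.15-fold and 2.27-fold. HSP90AB1, the constitutive form, had 501 and 490.0 CPM in METTL7A and 1229 and 626 CPM in Control 8-cell libraries, against 383 and 393 CPM in METTL7A and 413 and 407 CPM in Control 2-cell libraries. Control 8-cell replicate 1 was far above the other 7 libraries. The log2 fold change of HSP90AB1 was 0.35 (SE 0.344, adjusted p = 0.442) in METTL7A embryos and 1.18 (SE 0.348, adjusted p = 0.0187) in Control embryos, and 0.59, adjusted p = 0.0313 in Control embryos without that library. HSPH1, an HSP110-type exchange factor, had 178 and 241 CPM in METTL7A and 233 and 137 CPM in Control 8-cell libraries, against 155 and 191 CPM in METTL7A and 184 and 182 CPM in Control 2-cell libraries, with overlapping groups and log2 fold changes of 0.27 (SE 0.326, adjusted p = 0.536) in METTL7A embryos and 0.02 (SE 0.326, adjusted p = 0.969) in Control embryos. The HSP90AA1 call in METTL7A embryos ended without METTL7A 8-cell replicate 2 or any of the 2-cell libraries (adjusted p = 0.0910 to 0.174). Both Control calls ended without either Control 2-cell library (adjusted p = 0.115 to 0.121 for HSP90AA1 and 0.123 to 0.132 for HSP90AB1).

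**Figure D3:**
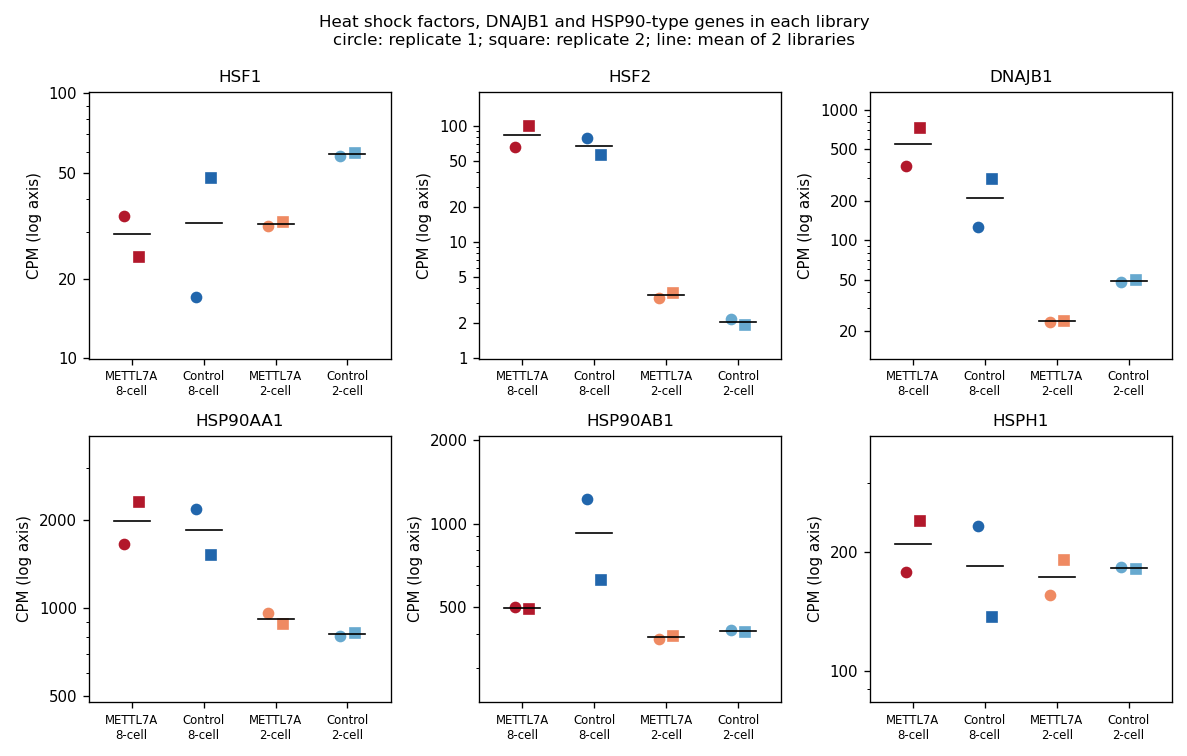
CPM on a log axis in each library for HSF1, HSF2, DNAJB1, HSP90AA1, HSP90AB1 and HSPH1, with the METTL7A and Control 8-cell groups left of the 2-cell groups and lines at the means of 2 libraries. HSF2 stands at 56.5 to 100.3 CPM at the 8-cell stage and 1.95 to 3.67 CPM at the 2-cell stage, while HSF1 spans 17.0 to 59.5 CPM over all libraries.

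The DNAJC genes are the largest and most diverse co-chaperone family. Of 27 tested, 10 (37%) rose and 2 (7.41%) fell in METTL7A embryos, where 23.1% of all genes rose and 17.1% fell. In Control embryos 11 (40.7%) rose and 4 (14.8%) fell, where 29.9% of all genes rose and 22.8% fell. The other 15 in METTL7A and 12 in Control embryos did not pass. DNAJC12, which binds aromatic amino acid hydroxylases, had 7.98 and 10.1 CPM in METTL7A and 19.5 and 10.3 CPM in Control 8-cell libraries, against 0.114 and 0.0885 CPM in METTL7A and 0.0825 and 0.0865 CPM in Control 2-cell libraries. The 2-cell libraries held 2 counts each, so the 2-cell level is set by very few reads. Its log2 fold change was 6.41 (SE 0.663, adjusted p = 0.000144) in METTL7A embryos and 7.36 (SE 0.675, adjusted p = 0.000106) in Control embryos. DNAJC24, needed for the diphthamide modification of translation elongation factor 2, had 18.4 and 12.9 CPM in METTL7A and 46.0 and 16.4 CPM in Control 8-cell libraries, against 0.398 and 1.37 CPM in METTL7A and 0.206 and 0.389 CPM in Control 2-cell libraries. DNAJC24 rose by 4.11 (SE 0.730, adjusted p = 0.00232) in METTL7A embryos and 6.68 (SE 0.835, adjusted p = 0.000349) in Control embryos. DNAJC19, a protein of the inner mitochondrial membrane, had 20.5 and 11.1 CPM in METTL7A and 48.9 and 16.3 CPM in Control 8-cell libraries, against 1.42 and 2.04 CPM in METTL7A and 1.57 and 1.56 CPM in Control 2-cell libraries and rose by 3.18 (SE 0.613, adjusted p = 0.00341) in METTL7A embryos and 4.38 (SE 0.641, adjusted p = 0.000699) in Control embryos. For all 3 genes every 8-cell library lay above every 2-cell library. The Control rise of DNAJC24 was 5.74, adjusted p = 0.000132, and that of DNAJC19 3.36, adjusted p = 0.000330, without Control 8-cell replicate 1. Without METTL7A 2-cell replicate 1 or 2 the METTL7A rise of DNAJC24 was 3.45 or 5.25.

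J-domain proteins of the ER lumen moved in both directions. DNAJC3, a co-chaperone of the ER HSP70 and inhibitor of eIF2-alpha kinases, had 156 and 274 CPM in METTL7A and 178 and 188 CPM in Control 8-cell libraries, against 43.7 and 32.5 CPM in METTL7A and 27.9 and 27.5 CPM in Control 2-cell libraries, and rose by 2.49 (SE 0.343, adjusted p = 0.000608) in METTL7A embryos and 2.72 (SE 0.346, adjusted p = 0.000379) in Control embryos. DNAJC10, a disulfide reductase of the ER, had 249.6 and 319 CPM in METTL7A and 247 and 211 CPM in Control 8-cell libraries, against 47.3 and 63.9 CPM in METTL7A and 49.1 and 46.6 CPM in Control 2-cell libraries, with rises of 2.35 (SE 0.296, adjusted p = 0.000369) in METTL7A embryos and 2.25 (SE 0.294, adjusted p = 0.000410) in Control embryos. Neither gene had 8-cell and 2-cell values that overlapped. DNAJB11, another ER-lumen co-chaperone, was lower at the 8-cell stage, with 32.7 and 35.0 CPM in METTL7A and 58.5 and 36.3 CPM in Control 8-cell libraries, against 76.8 and 72.7 CPM in METTL7A and 107 and 100.2 CPM in Control 2-cell libraries. It fell by 1.14 (adjusted p = 0.0157) in METTL7A and 1.13 (adjusted p = 0.0124) in Control embryos on the log2 scale. The DNAJB11 calls ended without any 1 of the 4 METTL7A libraries (adjusted p = 0.0668 to 0.0742) and without either Control 2-cell library (adjusted p = 0.0644 to 0.0902).

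DNAJC8, a splicing-associated protein and the DNAJC gene with the most counts, had 599 and 565 CPM in METTL7A and 468 and 550.2 CPM in Control 8-cell libraries, against 249.9 and 189 CPM in METTL7A and 180.4 and 180.4 CPM in Control 2-cell libraries, and rose by 1.41 (SE 0.281, adjusted p = 0.00397) in METTL7A embryos and 1.497 (SE 0.282, adjusted p = 0.00225) in Control embryos. The METTL7A call ended without METTL7A 2-cell replicate 2 (adjusted p = 0.0652). DNAJC2, a ribosome-associated co-chaperone, DNAJC17 and DNAJC25 also rose in both treatments, by 1.28, 1.86 and 1.76 in METTL7A and 1.45, 1.31 and 1.99 in Control embryos. In METTL7A embryos the calls ended without METTL7A 8-cell replicate 1 or either METTL7A 2-cell library for DNAJC2 (adjusted p = 0.0674 to 0.0895), without METTL7A 8-cell replicate 1 or METTL7A 2-cell replicate 2 for DNAJC17 (adjusted p = 0.0502 to 0.0848), and without METTL7A 8-cell replicate 2 (1.04, adjusted p = 0.161) or any 2-cell library (0.0586 to 0.149) for DNAJC25. In Control embryos they ended without Control 2-cell replicate 2 for DNAJC2 (adjusted p = 0.0624), without either Control 2-cell library for DNAJC25 (adjusted p = 0.0711 to 0.0917), and without Control 8-cell replicate 2 (0.62, adjusted p = 0.114), either METTL7A 8-cell or either Control 2-cell library for DNAJC17 (adjusted p = 0.0512 to 0.128). DNAJC28 rose in Control embryos (1.11, adjusted p = 0.0224), a call that ended without either Control 2-cell library (adjusted p = 0.186 to 0.189). DNAJC5G, a relative of the synaptic vesicle protein DNAJC5, rose in METTL7A embryos by 5.25 (SE 1.55, adjusted p = 0.0240), but had 0.591 and 9.38 CPM in the METTL7A 8-cell libraries and at most 0.704 CPM in all others. Without METTL7A 8-cell replicate 2 its log2 fold change was 2.15, adjusted p = 0.399, and the call also ended without either METTL7A 2-cell library (adjusted p = 0.148 and 0.160). Without METTL7A 8-cell replicate 1 it was 6.12, adjusted p = 0.0178.

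Other J-domain genes fell. DNAJC14, an ER membrane protein known in cattle as a cellular cofactor of pestivirus protein processing, had 36.2 and 45.1 CPM in METTL7A and 28.9 and 28.3 CPM in Control 8-cell libraries, against 178 and 208 CPM in METTL7A and 239 and 242 CPM in Control 2-cell libraries. The stages did not overlap, and the log2 fold change was -2.25 (SE 0.273, adjusted p = 0.000314) in METTL7A embryos and -3.07 (SE 0.282, adjusted p = 0.000106) in Control embryos. DNAJC11, part of the complex that shapes mitochondrial inner membrane folds, had 17.2 and 15.3 CPM in METTL7A and 24.0 and 21.7 CPM in Control 8-cell libraries, against 80.1 and 83.4 CPM in METTL7A and 85.8 and 92.5 CPM in Control 2-cell libraries. Its log2 fold change was -2.33 (SE 0.281, adjusted p = 0.000307) in METTL7A embryos and -1.96 (SE 0.276, adjusted p = 0.000573) in Control embryos, and the stages did not overlap. DNAJA3, the mitochondrial DNAJA protein, had 19.6 and 26.1 CPM in METTL7A and 35.7 and 23.1 CPM in Control 8-cell libraries, against 96.2 and 105 CPM in METTL7A and 122 and 129.6 CPM in Control 2-cell libraries, with log2 fold changes of -2.14 (SE 0.321, adjusted p = 0.000941) in METTL7A embryos and -2.10 (SE 0.319, adjusted p = 0.000824) in Control embryos. DNAJC16 had 31.5 and 38.4 CPM in METTL7A and 11.3 and 24.2 CPM in Control 8-cell libraries, against 46.6 and 87.5 CPM in METTL7A and 80.9 and 83.8 CPM in Control 2-cell libraries, and fell in Control embryos (-2.21, adjusted p = 0.00314) but not by the test in METTL7A embryos (-0.94, adjusted p = 0.109). Its Control value was -2.91, adjusted p = 0.000355 without Control 8-cell replicate 2. DNAJA4 fell in both (-0.996, adjusted p = 0.0484 in METTL7A and -1.37, adjusted p = 0.0106 in Control embryos) and DNAJC18 in Control embryos (-0.95, adjusted p = 0.0208). The DNAJA4 call in METTL7A embryos ended without METTL7A 8-cell replicate 2 or any 2-cell library (adjusted p = 0.0682 to 0.214), and without METTL7A 8-cell replicate 1 the value was -1.65, adjusted p = 0.0159. In Control embryos DNAJA4 missed the threshold without Control 2-cell replicate 1 (adjusted p = 0.0605), and DNAJC18 without either Control 2-cell library (adjusted p = 0.101 to 0.126).

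Among the remaining J-domain members with many counts, DNAJA1, a main cytosolic co-chaperone of HSP70, had 948 and 1316 CPM in METTL7A and 797 and 896 CPM in Control 8-cell libraries, against 691 and 567 CPM in METTL7A and 538 and 555 CPM in Control 2-cell libraries. DNAJA1 rose in METTL7A embryos by 0.85 (SE 0.300, adjusted p = 0.0483) and stood at 0.63 (SE 0.299, adjusted p = 0.103) in Control embryos. Its call ended without any METTL7A library or either Control 2-cell library (adjusted p = 0.0722 to 0.298). DNAJB4 rose in METTL7A embryos (0.83, adjusted p = 0.0292) and missed the threshold in Control embryos (0.66, adjusted p = 0.0530), and lost its call without the same 6 libraries (adjusted p = 0.0935 to 0.197). DNAJA2 and DNAJB6, cytosolic co-chaperones, and DNAJC9, a histone co-chaperone, did not pass in either treatment, with log2 fold changes of -0.55, 0.62 and 0.05 in METTL7A and -0.79, 0.54 and -0.14 in Control embryos. The other 14 tested J-domain members (DNAJB2, DNAJB5, DNAJB12, DNAJB14, DNAJC1, DNAJC4, DNAJC5, DNAJC6, DNAJC7, DNAJC13, DNAJC15, DNAJC21, DNAJC27 and DNAJC30) passed in neither treatment, with log2 fold changes from -1.17 (DNAJC15) to 0.93 (DNAJC6) in METTL7A and from -1.36 (DNAJC30) to 1.25 (DNAJC4) in Control embryos. In all, 1 of 4 tested DNAJA genes rose and 2 fell and 3 of 9 DNAJB genes rose and 1 fell in METTL7A embryos, against 0 and 2 DNAJA and 1 and 1 DNAJB genes in Control embryos. Of all genes, 23.1% rose and 17.1% fell in METTL7A embryos, and 29.9% rose and 22.8% fell in Control embryos.

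Most subunits of the CCT ring did not pass the test between stages. Of 8 tested CCT genes, 2 (25%) rose in METTL7A embryos (CCT4 and CCT6A), near the 23.1% of all genes that rose. In Control embryos 3 (37.5%) rose (CCT4, CCT6A and CCT6B), beside 29.9% of all genes. In both treatments 0 CCT genes fell, beside 17.1% of all genes in METTL7A and 22.8% in Control embryos. CCT4 had 224 and 226 CPM in METTL7A and 373 and 234 CPM in Control 8-cell libraries, against 95.1 and 73.0 CPM in METTL7A and 77.2 and 73.6 CPM in Control 2-cell libraries. All 8-cell libraries lay above all 2-cell libraries. The rise of CCT4 was 1.42 (SE 0.309, adjusted p = 0.00614) in METTL7A embryos and 2.01 (SE 0.314, adjusted p = 0.000945) in Control embryos. CCT6A, the common form of the zeta subunit, had 17.5 and 29.8 CPM in METTL7A and 407 and 67.03 CPM in Control 8-cell libraries, against 0.910 and 0.443 CPM in METTL7A and 0.454 and 0.0433 CPM in Control 2-cell libraries. Its level in 2-cell libraries, 1 to 16 counts, was far below that of any 8-cell library, and Control 8-cell replicate 1 was the highest by a wide margin. In the same 2-cell libraries CCT2, another subunit of the ring, had 404 to 547 CPM. How reads shared with near copies were counted for CCT6A is not given in the sources used here. Its 2-cell level and its folds are therefore uncertain, and the part of read assignment in them was not tested. CCT6A rose by 5.14 (SE 0.978, adjusted p = 0.00319) in METTL7A embryos and 9.84 (SE 1.18, adjusted p = 0.000290) in Control embryos. Without Control 8-cell replicate 1 the Control value was 8.00, adjusted p = 3.51e-05, without Control 8-cell replicate 2 it was 10.57, adjusted p = 3.34e-06, and without Control 2-cell replicate 1 or 2 it was 12.18, adjusted p = 0.000967 or 8.96, adjusted p = 0.00147. In METTL7A embryos the calls of CCT4 and CCT6A ended without METTL7A 2-cell replicate 2 (adjusted p = 0.0791 and 0.0532).

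CCT6B, a zeta form known from testis, had 11 and 4.69 CPM in METTL7A and 6.91 and 7.87 CPM in Control 8-cell libraries, against 3.53 and 3.01 CPM in METTL7A and 2.76 and 2.73 CPM in Control 2-cell libraries. It rose in Control embryos by 1.43 (SE 0.521, adjusted p = 0.0437) and had 1.26 (SE 0.520, adjusted p = 0.0808) in METTL7A embryos, whose 8-cell libraries differed widely. The CCT6B call ended without Control 8-cell replicate 2 or any of the 4 libraries at the 2-cell stage (adjusted p = 0.0559 to 0.228). For CCT2, CCT3, CCT5, CCT7 and CCT8 the log2 fold changes ran from -0.51 (CCT5) to 0.74 (CCT2) in METTL7A and from -0.30 (CCT5) to 0.58 (CCT7) in Control embryos, with adjusted p-values from 0.0668 to 0.931. CCT8, the one with the most counts, had 1054 and 1162 CPM in METTL7A and 995 and 918 CPM in Control 8-cell libraries, against 1044 and 989 CPM in METTL7A and 850.3 and 816 CPM in Control 2-cell libraries. CCT5 was the 1 with negative values, with 189 and 227 CPM in METTL7A and 249 and 230.3 CPM in Control 8-cell libraries, against 296 and 299.7 CPM in METTL7A and 297 and 293 CPM in Control 2-cell libraries. TCP1, the alpha subunit of the ring, which the symbol rule does not take in, had 0.77 (SE 0.343, adjusted p = 0.103) in METTL7A and rose by 1.11 (SE 0.345, adjusted p = 0.0234) in Control embryos. Its call ended without Control 8-cell replicate 1 (0.60, adjusted p = 0.0727), METTL7A 2-cell replicate 2 (1.07, adjusted p = 0.0511) or either Control 2-cell library (1.09, adjusted p = 0.132, and 1.05, adjusted p = 0.146).

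**Figure D4:**
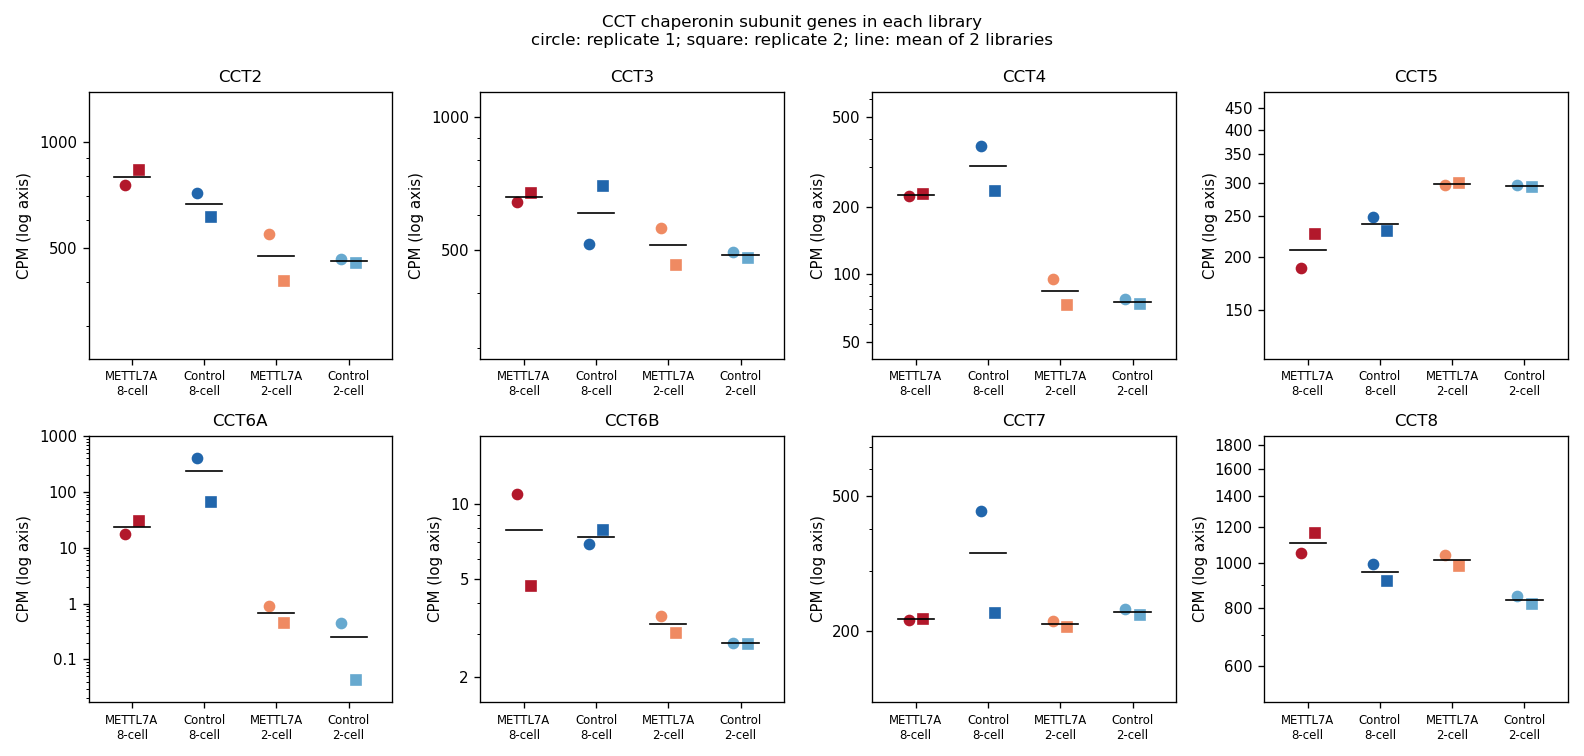
CPM on a log axis in each library for the 8 tested CCT genes, with METTL7A and Control 8-cell groups left of the 2-cell groups and lines at the means of 2 libraries. CCT4 (224 to 373 CPM at the 8-cell and 73.0 to 95.1 CPM at the 2-cell stage) and CCT6A lie higher in all 8-cell libraries, CCT5 lies lower, and CCT8 spans only 816 to 1162 CPM over all libraries.

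The mitochondrial chaperonin pair moved unequally. HSPE1, its lid protein, had 130.2 and 108 CPM in METTL7A and 336 and 112 CPM in Control 8-cell libraries, against 32.0 and 26.9 CPM in METTL7A and 26.2 and 29.5 CPM in Control 2-cell libraries. Every 8-cell library exceeded every 2-cell library, and Control 8-cell replicate 1 was the highest. HSPE1 rose by 2.02 (SE 0.464, adjusted p = 0.00796) in METTL7A embryos and 3.01 (SE 0.481, adjusted p = 0.00105) in Control embryos, and by 1.99, adjusted p = 0.000205 in Control embryos without Control 8-cell replicate 1. HSPD1, the barrel protein, had 43.1 and 58.5 CPM in METTL7A and 355 and 73.1 CPM in Control 8-cell libraries, against 55.1 and 55.4 CPM in METTL7A and 50.2 and 54.4 CPM in Control 2-cell libraries. The METTL7A 8-cell libraries lay around the 2-cell values and Control 8-cell replicate 1 was far above them. HSPD1 did not pass in METTL7A embryos (-0.12, adjusted p = 0.887) and rose in Control embryos by 2.03 (SE 0.596, adjusted p = 0.0181). Without Control 8-cell replicate 1 that value was 0.47, adjusted p = 0.160, and without Control 8-cell replicate 2 it was 2.71, adjusted p = 2.24e-05. The HSPD1 call also ended without either Control 2-cell library (adjusted p = 0.0827 and 0.0715), and the HSPE1 call in METTL7A embryos without METTL7A 8-cell replicate 1 or either METTL7A 2-cell library (adjusted p = 0.0565 to 0.0847).

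Both members that fell between treatments, CRYAB and HSPB1, encode small heat shock proteins. Of 5 tested members of this group 1 (20%) rose between stages in METTL7A embryos (HSPB3), beside 23.1% of all genes. In Control embryos 3 (60%) rose (CRYAB, HSPB1 and HSPB3), beside 29.9% of all genes. In both treatments 0 fell, beside 17.1% of all genes in METTL7A and 22.8% in Control embryos. CRYAB, alpha-B crystallin, a chaperone abundant in lens, muscle and fibroblasts, had 0.369 and 0.586 CPM in METTL7A and 98.8 and 4.05 CPM in Control 8-cell libraries, against 0.626 and 0.266 CPM in METTL7A and 0.289 and 0.303 CPM in Control 2-cell libraries. Both Control 8-cell libraries were above every other library, with a wide gap between them. At the 8-cell stage CRYAB was lower in METTL7A embryos (log2 fold change -6.74, SE 1.38, adjusted p = 0.0343). Without Control 8-cell replicate 1 the value was -3.08, adjusted p = 0.0862, and without Control 8-cell replicate 2 it was -7.67, adjusted p = 1.05e-05. HSPB1, the small heat shock protein known as HSP27, had 9.38 and 8.54 CPM in METTL7A and 283 and 38.4 CPM in Control 8-cell libraries, against 4.55 and 2.35 CPM in METTL7A and 3.67 and 5.41 CPM in Control 2-cell libraries. The Control 8-cell libraries were again the highest and apart from each other, and the METTL7A 8-cell libraries lay above all 2-cell libraries. HSPB1 was lower in METTL7A embryos as well (log2 fold change -4.16, SE 0.829, adjusted p = 0.0338). The HSPB1 value was -2.10, adjusted p = 0.0390 without Control 8-cell replicate 1 and -4.96, adjusted p = 3.58e-05 without Control 8-cell replicate 2. Leaving out either METTL7A 8-cell or either METTL7A 2-cell library ended both calls (adjusted p = 0.0846 to 0.308 for HSPB1 and 0.0865 to 0.308 for CRYAB).

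Between stages CRYAB and HSPB1 rose in Control embryos, by 7.41 (SE 1.40, adjusted p = 0.00232) and 5.15 (SE 0.867, adjusted p = 0.00136), and did not pass in METTL7A embryos (0.12, adjusted p = 0.958 and 1.38, adjusted p = 0.184). Without Control 8-cell replicate 1 the Control rises were 3.73, adjusted p = 0.00332, and 3.06, adjusted p = 0.000388, and without Control 8-cell replicate 2 they were 8.30, adjusted p = 2.18e-06, and 5.91, adjusted p = 4.69e-06. Of the 7 stromal markers, 5 (COL1A2, COL3A1, LUM, DCN and POSTN) had both METTL7A 8-cell libraries below both Control 8-cell libraries, COL1A1 overlapped, and FBN1 was the 1 higher in METTL7A. Lumican (LUM) had 1.26 and 1.51 CPM in METTL7A 8-cell libraries, against 4782 and 667 CPM in Control 8-cell replicates 1 and 2, where the 7 markers summed to 5136 and 993 CPM, so the sum was mostly LUM. The collagen COL3A1 had 0.0739 and 0.335 CPM in METTL7A and 36.5 and 12.0 CPM in Control 8-cell libraries. The markers did not share 1 order of libraries, since DCN (41.6 and 56.3 CPM) and POSTN (120.2 and 188 CPM) were higher in Control 8-cell replicate 2 than in replicate 1. The part of stromal or other cells in the CRYAB and HSPB1 differences was not tested. In a RefSeq gene order, from an assembly that may differ from that of the counts, HSPB2 is the direct neighbour of CRYAB, and it had 3 and 6 counts in METTL7A 8-cell, 8 and 2 in Control 8-cell, 2 and 0 in METTL7A 2-cell and 2 and 1 in Control 2-cell libraries.

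HSPB3, a small heat shock protein of muscle, had 61 and 4 counts in METTL7A 8-cell, 33 and 19 in Control 8-cell, 3 and 1 in METTL7A 2-cell and 0 in both Control 2-cell libraries. It rose in METTL7A embryos by 4.48 (SE 1.36, adjusted p = 0.0307) and in Control embryos with adjusted p = 0.00990, where it was at least 23.6-fold higher at the 8-cell stage, taking 3 counts over the Control 2-cell group as the floor, or at least 17.6-fold with Control 8-cell replicate 1 left out. The METTL7A call ended without METTL7A 8-cell replicate 1 (1.59, adjusted p = 0.423) or without METTL7A 2-cell replicate 1 or 2 (5.53 and 3.76, adjusted p = 0.109 and 0.205), and without METTL7A 8-cell replicate 2 the value was 5.33, adjusted p = 0.0170. HSPB7, too low to be tested, had 0 counts in both METTL7A 8-cell libraries, 49 and 6 in Control 8-cell libraries and 0 in all 2-cell libraries, which is at least 13.4-fold lower in METTL7A than in Control 8-cell embryos and at least 24.9-fold higher in Control 8-cell than in Control 2-cell embryos. With Control 8-cell replicate 1 left out, the HSPB7 bounds were at least 2.99-fold lower and at least 5.56-fold higher. HSPB11, a protein of intraflagellar transport, and HSPB6 passed in no comparison. HSPB11 had 34.0 and 12.7 CPM in METTL7A and 26.1 and 18.3 CPM in Control 8-cell libraries, against 13.3 and 8.50 CPM in METTL7A and 10.5 and 13.5 CPM in Control 2-cell libraries.

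**Figure D5:**
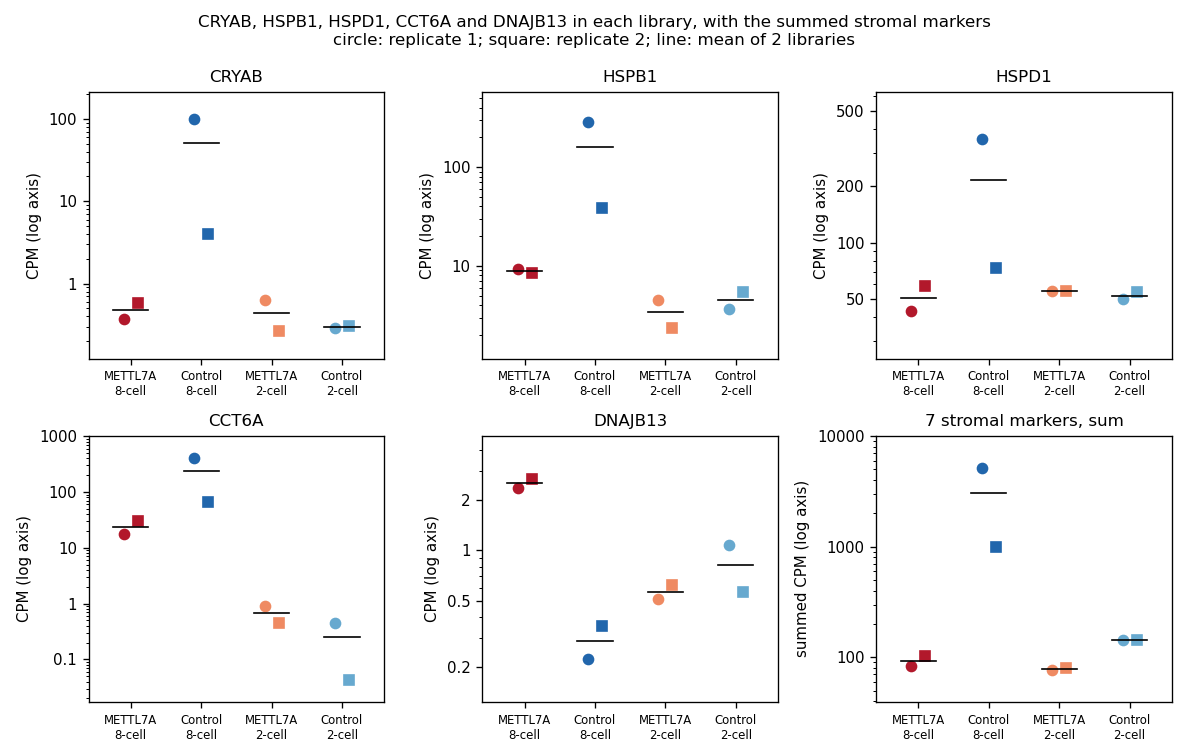
CPM on a log axis in each library for CRYAB, HSPB1, HSPD1, CCT6A and DNAJB13, and the summed CPM of 7 stromal markers, with METTL7A and Control 8-cell groups left of the 2-cell groups and lines at the means of 2 libraries. Control 8-cell replicate 1 is the highest point for CRYAB (98.8 CPM), HSPB1 (283 CPM), HSPD1, CCT6A and the stromal sum (5136 CPM), and the lowest for DNAJB13 (0.225 CPM).

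Between METTL7A and Control embryos the chaperone genes differed in few cases. At the 2-cell stage 0 of 71 members passed the edgeR test, where 0.0124% of all genes were higher and 0% lower. At an unadjusted p under 0.05 there were 3, beside 1196 of all 16149 genes, and DESeq2 called 0, among 158 genes called in all. These 3 were DNAJB4 (0.78, adjusted p = 0.560), DNAJC30 (-1.53, adjusted p = 0.596) and DNAJB1 (-1.03, adjusted p = 0.649). Both METTL7A libraries lay above both Control libraries for 28 members (39.4%, beside 26.9% of all genes), and below them for 18 (25.4%, beside 30.5%). The median of the members was 0.07 and that of all genes 0. A fit of the 2-cell libraries alone called 5 members, with DNAJB4 and DNAJC15 higher and DNAJB1, DNAJC30 and HSF1 lower, among 1005 genes called in all. HSPA1A and HSPA8 differed by -0.38 (SE 0.293, adjusted p = 0.883) and -0.03 (SE 0.336, adjusted p = 1) at this stage.

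At the 8-cell stage 1 member was higher in METTL7A embryos and 2 were lower, where 0.737% of all genes were higher and 4.55% lower. The 2 that fell were CRYAB and HSPB1. The 1 that rose was DNAJB13, a protein of the sperm axoneme, with 2.36 and 2.68 CPM in METTL7A and 0.225 and 0.352 CPM in Control 8-cell libraries, against 0.512 and 0.620 CPM in METTL7A and 1.07 and 0.563 CPM in Control 2-cell libraries. METTL7A 8-cell libraries held 32 counts each and Control 8-cell libraries 4 and 6, and no other library overlapped the METTL7A 8-cell pair. The difference was 3.10 (SE 0.757, adjusted p = 0.0491), and DNAJB13 rose between stages in METTL7A embryos by 2.14 (SE 0.707, adjusted p = 0.0374). The call between treatments was lost without any library other than Control 8-cell replicate 2 (adjusted p = 0.104 to 0.308), and that between stages without any METTL7A or Control 2-cell library (adjusted p = 0.0852 to 0.192). Both METTL7A libraries lay above both Control libraries for 22 members (31%, beside 28.1% of all genes), and below them for 17 (23.9%, beside 22.4%). The median difference was 0.17 for members and 0.14 for all genes. With METTL7A and LOC781439 left out of the library sizes 0 members were higher and 3 lower, beside 62 and 1029 of all genes. The median of all genes moved by -0.23 and that of the members was -0.0697, so directions near 0 depend on the scaling.

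Calls at the 8-cell stage depended on the library left out, with a single remaining library assumed to vary like the other groups. Without Control 8-cell replicate 1 the members' median was 0.18, beside 0.083 for all genes. Without Control 8-cell replicate 2 it was 0.17, beside 0.32 for all genes. CRYAB, HSPB1 and DNAJB13 all lost their calls without any METTL7A library, and HSPB1 alone kept its call without Control 8-cell replicate 1. Without either Control 2-cell library CRYAB and HSPB1 kept their calls, and CCT6A and DNAJC22 were called lower as well. With all libraries 17 of 71 members had an unadjusted p under 0.05, beside 4299 of all 16149 genes. DESeq2 called 4 members higher and 6 lower, beside 668 higher and 1706 lower among all genes. Members that came close to the threshold were CCT6A (-3.33, adjusted p = 0.0519), DNAJC22 (-6.35, adjusted p = 0.0574), DNAJB4 (0.94, adjusted p = 0.0635), HSPD1 (-2.08, adjusted p = 0.0724) and DNAJB1 (1.37, adjusted p = 0.0936). DNAJC22, whose fly counterpart acts in clathrin-mediated uptake, had 2 and 0 counts in METTL7A 8-cell libraries, against 234 and 10 in Control 8-cell libraries. Its Control over METTL7A ratio at this stage was 89.2 (95% counting interval 24.4 to 741). Without Control 8-cell replicate 1 that DNAJC22 ratio was 7.48, from 10 counts against 2. In Control embryos it rose between stages with adjusted p = 0.00536, at a ratio of 332 (95% counting interval 58.9 to 13147) against 1 count in the Control 2-cell libraries, and the call ended without Control 8-cell replicate 1 (adjusted p = 0.0687), where the ratio was 27.8, from 10 counts against 1. Its Control log2 fold change was 7.94 with all libraries and 4.39 to 9.94 with 1 of the 4 Control libraries left out.

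The METTL7A effect at the 8-cell stage minus that at the 2-cell stage passed for 0 of 71 members by edgeR, where 0% of all genes passed upward and 0.0124% downward. At an unadjusted p under 0.05 there were 13 members, beside 2588 of all 16149 genes. DESeq2 called 1 higher (DNAJB1) and 4 lower (CRYAB, DNAJC22, HSPA13 and HSPB1), beside 235 and 682 of all genes. For HSPA1A and HSPA6 the edgeR values were 1.21 (SE 0.418, adjusted p = 0.224) and 1.21 (SE 0.497, adjusted p = 0.280). In this comparison the members' median was -0.018 with all libraries, beside 0.13 for all genes. Without Control 8-cell replicate 2 it was -0.10, beside 0.33 for all genes.

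The members' partners outside the symbol rule were taken from a list of 44 other chaperone pathway genes, 43 of them tested. In METTL7A embryos 11 rose and 5 fell between stages, and in Control embryos 17 rose and 8 fell, with medians of 0.04 and 0.14. These are 25.6% and 11.6% of the list in METTL7A and 39.5% and 18.6% in Control embryos, beside 23.1% and 17.1%, and 29.9% and 22.8%, of all genes, whose medians were 0.04 and 0.18. Among those that rose in both were PTGES3 (p23), a co-chaperone of HSP90, with 2.46 (SE 0.321, adjusted p = 0.000458) in METTL7A and 2.30 (SE 0.319, adjusted p = 0.000547) in Control embryos, AHSA1, which stimulates the HSP90 ATPase, with 1.42 and 1.01, and the prefoldin subunits VBP1, PFDN2, PFDN5 and PFDN6, which pass actin and tubulin to the CCT ring. VBP1 had 229 and 376.6 CPM in METTL7A and 197 and 221 CPM in Control 8-cell libraries, against 19.3 and 14.1 CPM in METTL7A and 17.0 and 15.6 CPM in Control 2-cell libraries, and rose by 4.18 (SE 0.360, adjusted p = 7.06e-05) in METTL7A embryos and 3.68 (SE 0.352, adjusted p = 0.000124) in Control embryos. Those that fell in both included TRAP1, the mitochondrial HSP90 (-1.86 and -2.001), HSPBP1, an exchange factor of HSP70 (-2.55 and -2.04), HYOU1, an ER HSP110-type chaperone (-2.39 and -2.73), and FKBP5, a co-chaperone of steroid receptors (-1.49 and -1.68). Between treatments 0 of the 43 passed at the 2-cell stage, with 4 at an unadjusted p under 0.05, beside 1196 of all 16149 genes. At the 8-cell stage SERPINH1, the collagen chaperone of the ER, was lower in METTL7A embryos with adjusted p = 0.0338, and had 0 and 0.0838 CPM in METTL7A and 23.2 and 3.11 CPM in Control 8-cell libraries. The fitted SERPINH1 log2 fold change of -8.15 rests on 1 count in the METTL7A 8-cell libraries and depends on the prior count. The call ended without METTL7A 8-cell replicate 1 (-7.17, adjusted p = 0.184) or 2 (-10.96, adjusted p = 0.308), Control 8-cell replicate 1 (-6.07, adjusted p = 0.0937), or METTL7A 2-cell replicate 1 (-8.13, adjusted p = 0.0811) or 2 (-8.12, adjusted p = 0.0805). The part of stromal or other cells in the SERPINH1 difference was not tested.

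The calls and medians of this list moved with single libraries. With Control 8-cell replicate 1 left out, its median was 0.018 in METTL7A and -0.0343 in Control embryos, beside 0.023 and 0.069 for all genes. Between treatments at the 8-cell stage the list's median was 0.066 without Control 8-cell replicate 1 and -0.303 without Control 8-cell replicate 2. The medians of all genes were 0.083 and 0.320 in the same fits. The METTL7A median of the list ran from -0.156 to 0.112 with 1 library left out. Its Control median was 0.125 and 0.045 without Control 2-cell replicates 1 and 2. The AHSA1 call in METTL7A embryos ended without METTL7A 8-cell replicate 2 (1.31, adjusted p = 0.0618) or METTL7A 2-cell replicate 2 (1.24, adjusted p = 0.0983), and that of PFDN2 without METTL7A 2-cell replicate 2 (adjusted p = 0.0843). The AHSA1 call in Control embryos was lost without any METTL7A library or either Control 2-cell library (adjusted p from 0.0531 to 0.172).

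A list of 22 targets of HSF1 shares members with those above. It holds HSPA8 and HSP90AB1, called constitutive above, and leaves out HSPA6, which fell in both treatments. Its counts are therefore not those of heat-inducible genes alone. On this list 9 genes rose and 2 fell between stages in METTL7A embryos and 13 rose and 3 fell in Control embryos, with medians of 0.60 and 1.18. These are 40.9% and 9.09% of the list in METTL7A and 59.1% and 13.6% in Control embryos, beside 23.1% and 17.1%, and 29.9% and 22.8%, of all genes. The all-gene medians were 0.04 and 0.18. The members on it moved in both directions: HSPA8, HSP90AA1, HSPE1 and DNAJB1 rose in both treatments while HSPA1A and HSPA4L fell in both. Between treatments 0 of the 22 passed at the 2-cell stage by edgeR, with 3 at an unadjusted p under 0.05, beside 1196 of all 16149 genes. At the 8-cell stage 0 were higher and 3 (13.6%) were lower (CRYAB, HSPB1 and SERPINH1), beside 0.737% and 4.55% of all genes. With Control 8-cell replicate 1 left out, the list's median was 0.787 in Control and 0.581 in METTL7A embryos, beside 0.069 and 0.023 for all genes. Without Control 8-cell replicate 2 it was 1.35 in Control and 0.579 in METTL7A embryos, beside 0.012 and 0.021 for all genes. Between treatments at the 8-cell stage the list's median was 0.213 without Control 8-cell replicate 1 and 0.010 without Control 8-cell replicate 2. The medians of all genes were 0.083 and 0.320 in those fits. The METTL7A median ran from 0.162 without METTL7A 8-cell replicate 2 to 0.854 without METTL7A 2-cell replicate 1. The calls of CRYAB, HSPB1 and SERPINH1 between treatments ended without any METTL7A library, and HSPB1 alone kept its call without Control 8-cell replicate 1.

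The 10 members too low to be tested were CCT8L2, DNAJB3, DNAJB7, DNAJB8, DNAJC5B, HSPA12B, HSPB2, HSPB7, HSPB8 and HSPB9. DNAJC5B had 0 counts in all 8 libraries. Outside HSPB7 in Control 8-cell libraries, the highest count of any of them was 18, for CCT8L2 in METTL7A 8-cell replicate 1.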

How the data were processed

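RNA-seq read counts per gene were deposited for 8 libraries of 2-cell and 8-cell embryos, 2 per group. Per the labels' protocols, embryos went into SMART-Seq v4 cDNA synthesis without RNA extraction, followed by Tn5 tagmentation with Nextera XT, which does not mark strand, so a gene and an antisense partner cannot be told apart. The authors used Trim Galore 0.6.10, FastQC, STAR 2.7.11b, Subread 2.0.6 and DESeq2 1.44.0, per the submitters' processing notes. Genome build: not given in the sources used here. The same holds for the annotation and for the role of each tool. The row of the table that names no gene (0.184% to 0.950% of counts) entered neither library sizes nor tests.

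Counts were fitted in R 4.3.3 with edgeR 4.0.16 (robust quasi-likelihood test, TMM scaling, 1 coefficient per group over all 8 libraries). Genes passed filterByExpr (minimum count 10, minimum total 15), and p-values were adjusted by Benjamini-Hochberg over 16149 genes, with a threshold of 0.05. CPM uses TMM-scaled library sizes. A fold against a group at 0 is a bound against 3 counts over the group. Replicates differed by more than counting error in every group, but very unequally. The chi-square per degree of freedom between replicates was 2.48 in Control 2-cell and 45.5 in METTL7A 2-cell. It was 56.9 in METTL7A 8-cell and 330 in Control 8-cell.

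The members, the marker lists and the gene lists were chosen with earlier results of these data known. Named were a fixed set of main chaperones, all CCT members, the 8 members with the largest change past the threshold in each direction of each comparison, and the 2 members of each family with the most counts. Replicate numbers gave no sign of pairing libraries, so the main fit has no replicate term. Gene names came from the table and were looked up in a RefSeq gene list of the UOA_Brahman_1 assembly, which held 77 of the 81 members and was used for names and neighbours. Alternatives were RLE scaling, DESeq2 1.42.0, no filter, a fit of the groups compared alone, a replicate block, METTL7A and LOC781439 left out of library sizes, Control 2-cell libraries summed, and each library left out in turn. Leaving libraries out for the gene lists, for the genes outside the symbol rule and for the bounds was chosen after seeing the data.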

Additional observations from a re-analysis of the deposited data

How the results depend on the processing

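Over the alternatives no member named in the text changed the direction of a called difference. With 2 libraries per group, single libraries decided many calls, and a library left alone in its group was assumed to vary like the other groups. Between treatments at the 2-cell stage, all genes called numbered 2 in the main fit, 158 with DESeq2, 100 without the filter, 1005 with the groups compared alone and 2 to 50 with 1 library left out. The groups compared alone gave 2 members higher and 3 lower there, and the members' median was -0.012 with the Control 2-cell libraries summed. At the 8-cell stage the members higher numbered 0 with RLE scaling, 4 with DESeq2, 4 without the filter, 0 with the groups compared alone, 0 with METTL7A and LOC781439 left out of library sizes, 0 with Control 2-cell summed and 0 to 14 with 1 library left out. The members lower numbered 6 with DESeq2, 7 without the filter, 0 with the groups compared alone, 4 with Control 2-cell summed and 0 to 20 with 1 library left out. All genes called there numbered 854 in the main fit, 2374 with DESeq2, 2767 without the filter, 283 with the groups compared alone and 2 to 7129 with 1 library left out. The members' median at the 8-cell stage was -0.0697 with METTL7A and LOC781439 left out of library sizes and 0.034 to 0.18 with 1 library left out. Between stages in METTL7A embryos the members' median was 0.52 with RLE scaling, 0.52 with DESeq2, 0.34 without the filter, 0.21 with METTL7A and LOC781439 left out of library sizes, 0.36 with Control 2-cell summed and 0.35 to 0.48 with 1 library left out. With 1 library left out, 8 to 29 members rose and 5 to 16 fell, among 3276 to 9149 genes. In Control embryos the members' median was 0.64 with RLE scaling and 0.64 with DESeq2, where the median of all genes moved by 0.11, and 0.31 to 0.60 with 1 library left out. All genes called numbered 5404 with Control 2-cell summed and 5127 to 10759 with 1 library left out, of which 17 to 30 members rose and 8 to 16 fell. With the groups compared alone 18 members rose and 9 fell in Control embryos, beside 3627 and 2817 of all genes. In that fit CCT6B, DNAJB11, DNAJC17, DNAJC18, DNAJC22, DNAJC28, HSP90AA1, HSP90AB1 and HSPD1 lost their call. For the METTL7A effect at the 8-cell stage minus that at the 2-cell stage, all genes called numbered 2 in the main fit, 1 with RLE scaling, 917 with DESeq2, 1354 without the filter, 1 with METTL7A and LOC781439 left out of library sizes, 0 with Control 2-cell summed and 0 to 4568 with 1 library left out. The members numbered 1 higher and 4 lower with DESeq2, 1 higher and 7 lower without the filter, and 0 to 11 higher and 0 to 13 lower with 1 library left out, and their median was -0.26 with METTL7A and LOC781439 left out of library sizes. The cause of these shifts was not tested.

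The replicate numbers are shared between groups, and the correlations of same-numbered deviations ran from -0.0275 to 0.0586, which gave no sign of pairing. With only 2 libraries per group they cannot show that same-numbered libraries had no shared origin. With the replicate number as a block, 19 members rose and 9 fell in METTL7A embryos (DNAJA1 and DNAJB13 lost), beside 3723 and 2739 of all genes. In Control embryos 24 rose and 11 fell (CCT6B lost), beside 4647 and 3649 of all genes. Between treatments at the 8-cell stage 0 were higher and 3 lower (DNAJB13 lost and DNAJC22 gained), beside 185 and 898 of all genes. At the 2-cell stage 0 members were called, and 24 genes in all were called for the difference of effects. Members with few counts, such as DNAJC12, DNAJC22, CCT6A and HSPB3 at the 2-cell stage, have folds that rest on a handful of reads.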
